A study of Capra hircus with 90 samples.

Results

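ATP5IF1, MICOS10 and ROMO1 encode 3 small proteins of the mitochondrial inner membrane or its surroundings, and their transcripts were followed over 3 brainstem sites and 5 exposures of goats. They were taken from the genes that the authors' deposited table for the nucleus of the solitary tract after 24 h of CO2 lists as lower, so they were selected on their fold change and FDR there. Each symbol was tied to a row of the count table by its mean abundance, which gave ENSCHIG00000007574 for ATP5IF1, ENSCHIG00000023350 for MICOS10 and ENSCHIG00000010377 for ROMO1. They are 3 of 238 genes with a linked symbol and 3 of 17730 genes kept in a fit over all libraries. Genome positions are not printed, because no label or header names the build behind the count table.

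ATP synthase makes ATP from the proton gradient across the inner membrane and can also run backwards and consume ATP. ATP5IF1 is the small inhibitor protein that binds the enzyme and blocks this reverse activity, more so when the matrix is acidic. MICOS10 is a core subunit of the MICOS complex, which bends the inner membrane at the necks of the cristae, the folds that carry the respiratory chain. ROMO1 is a small protein of the inner membrane tied to the import of proteins into the matrix and to the release of reactive oxygen species. Neurons draw most of their ATP from mitochondria, and CO2 that is breathed in acidifies blood and brain tissue.

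The study asked which transcripts change at sites of respiratory control when goats breathe 6% CO2. Adult outbred female goats, aged 2 years or more, were assigned at random to 5 exposures of 6 animals each: room air for 24 h, CO2 for 3 h, CO2 for 24 h, room air for 7 d and CO2 for 7 d. Frozen brainstem was punched at 3 distances rostral to the obex. These were 0 to 2 mm for the nucleus of the solitary tract (NTS), 2 to 4 mm for the ventral respiratory column (VRC) and 8 to 10 mm for the retrotrapezoid nucleus (RTN), so that 90 libraries fell into 15 groups of 6. The 24 h room-air goats are the reference for the goats with 3 h and 24 h of CO2, which were extracted and sequenced with them in the first batch. Both 7 d groups formed the second batch, so values at 7 d differ from the others in batch as well as in time. No genotype, allele or drug is given for any group. A punch is bulk tissue, so fewer cells of a type and less RNA per cell cannot be told apart.

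Library totals lay between 5.46 M and 36.8 M counts, with a median of 23.3 M, and the lowest count of any of the 3 genes was 586, for ROMO1 in library 4 of the VRC after 24 h of CO2. Libraries 5 and 6 of NTS room air, 5 and 6 of NTS at 3 h and 5 of NTS at 24 h stood apart from the other first-batch NTS libraries on the leading principal component (23.8% of variance). Of 30 fixed cell type markers 9 had a linked symbol, and none of these marks neurons or astrocytes, so the tissue labels were not checked against such markers. Levels are CPM, counts scaled to a common library size with TMM factors, which are not per length, so they are compared between groups and not between genes.

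The choice of the genes rests on the NTS at 24 h, and the values there are a description. The authors' deposited table gives ATP5IF1 a log2 change of -0.72 with an FDR of 0.00974, MICOS10 -0.64 with 0.00974 and ROMO1 -0.81 with 0.0152. By p-value they stand at places 3, 10 and 49 of the 155 genes listed as lower in the authors' deposited table. Its weakest entries over all sites reach 0.50 in absolute log2 change and 0.0499 in FDR. None of the 3 appears in another of the authors' deposited tables.

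ATP5IF1 in the NTS of 24 h room-air goats had a lowest value of 334, a median of 400.4 and a highest value of 715 CPM, against 230, 254 and 326 CPM after 24 h of CO2. The groups did not overlap, since all 6 CO2 libraries lay below the lowest room-air library. This was so, with CO2 lower, for 0.874% of 17730 genes. The room-air mean was 440 ± 138 CPM and the CO2 mean 267 ± 35.7 CPM (SD, n = 6 each), a log2 change of -0.71 (SE 0.16).

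MICOS10 ranged from 145 over a median of 169 to 273 CPM in room air and from 102 over 109 to 146 CPM after 24 h of CO2. In 5 of 6 CO2 libraries the level was below the lowest of room air, and library 5 lay just above it. The means were 182 ± 45.5 and 117 ± 18.1 CPM (SD, n = 6 each), with a log2 change of -0.64 (SE 0.13). ROMO1 ranged from 102 over 112 to 214 CPM in room air and from 58.9 over 64.9 to 106 CPM after CO2. Again 5 of 6 CO2 libraries lay below room air and library 5 was the highest of its group. Its means were 128 ± 42.8 and 72.9 ± 17.9 CPM (SD, n = 6 each), with a log2 change of -0.80 (SE 0.19).

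**Figure D1:**
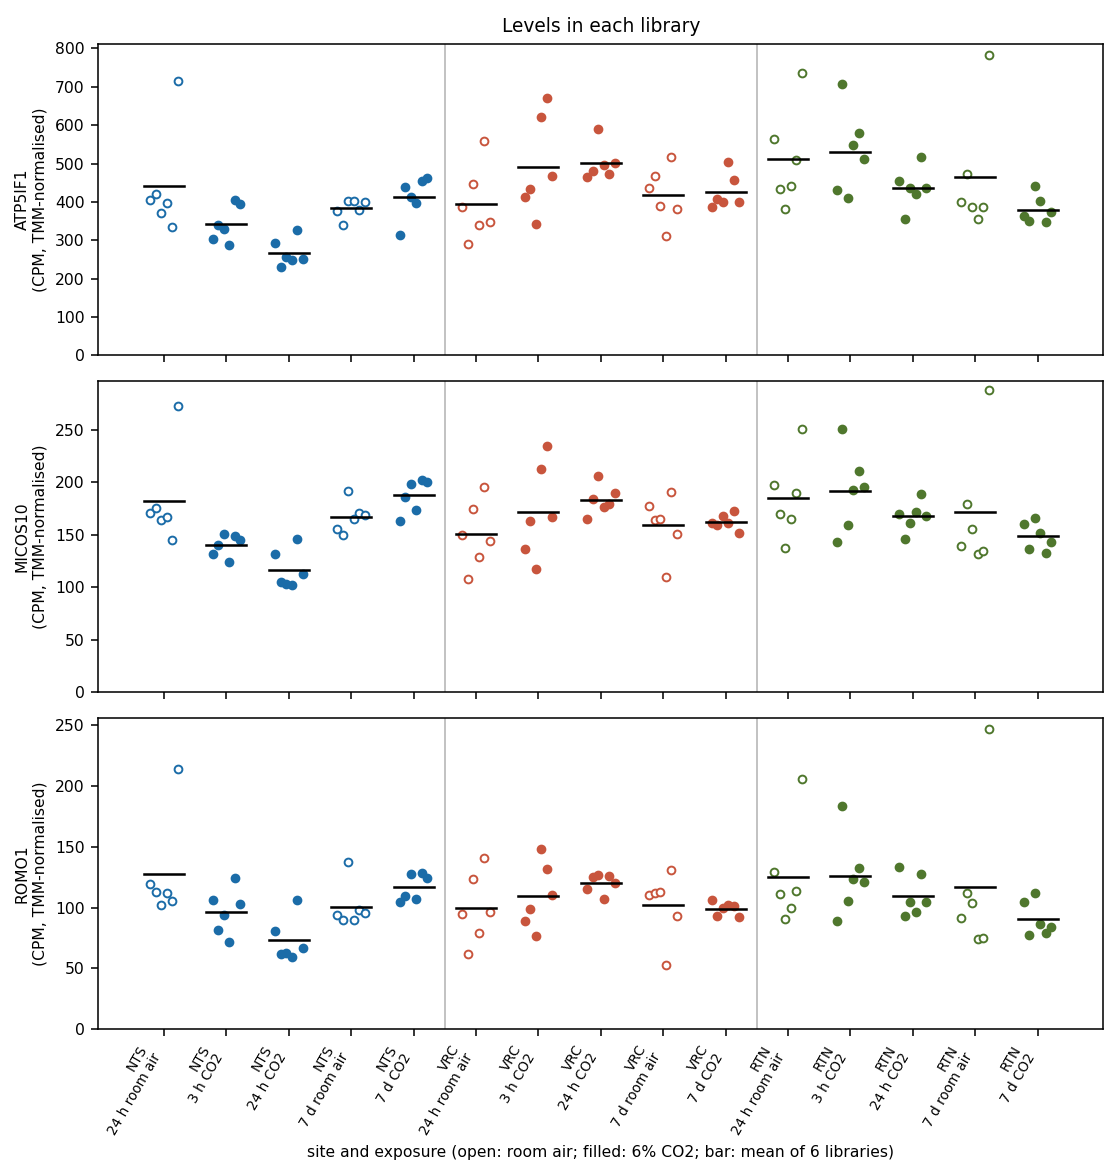
Level of ATP5IF1, MICOS10 and ROMO1 in each of 90 libraries (y axis, CPM after TMM scaling, from 0) by site and exposure (x axis). Open points are room air, filled points 6% CO2 and bars the mean of 6 libraries. The NTS after 24 h of CO2 has the lowest mean of the 15 groups for each gene, and library 6 of NTS room air at 24 h and of RTN room air at 7 d stand far above their groups.

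Library 6 of NTS room air held the highest values of that group for all 3 genes and is among the 5 libraries that stood apart. Without it the log2 changes at 24 h were -0.51 for ATP5IF1, -0.48 for MICOS10 and -0.58 for ROMO1. Without all 5 they were -0.63, -0.61 and -0.75. In the quasi-likelihood test of edgeR, 0 of 15605 genes (percent called 0) passed an adjusted p of 0.05 in this comparison, and 1591 were under 0.05 before adjustment. Other tools called more: 191 genes with DESeq2, 273 with limma voom and quality weights, and 250 in the likelihood ratio fit of all libraries. With the replicate number as a block edgeR called 13, and the log2 changes of the 3 genes were -0.68, -0.62 and -0.79.

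After 3 h of CO2 the NTS means lay between those of room air and 24 h of CO2 for each gene. The room-air libraries are the ones that chose the genes, so these values are also a description. ATP5IF1 ranged from 288 over a median of 334 to 405 CPM, MICOS10 from 124 over 143 to 151 CPM and ROMO1 from 71.8 over 98.3 to 124 CPM. The log2 changes were -0.35 (SE 0.16), -0.37 (SE 0.13) and -0.39 (SE 0.19), and 3 of 6 CO2 libraries lay below the lowest of room air for each gene. Without room-air library 6 they were -0.15, -0.21 and -0.17 and without the 5 libraries -0.33, -0.30 and -0.33. The share of all genes called in this comparison by edgeR was 0%, with 1053 at an unadjusted p under 0.05, 12 called by DESeq2 and 1 by limma voom. With the replicate number as a block edgeR called 3. Endothelial markers also differed in the fit, with no test given here: THBD differed by 1.59 (SE 0.35) and NOS3 by 0.95 (SE 0.22) on the log2 scale, and their sum ran from 26.7 to 66.1 CPM after 3 h against 17.6 to 26.9 CPM in room air. TTR reached 156 CPM in 1 library after 3 h, against at most 3.65 CPM in room air, and the part of these markers was not tested.

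The remaining comparisons were tested, since no deposited table chose the genes on them. They are 11 comparisons of 3 genes, or 33 values, each adjusted over all genes fitted with edgeR's quasi-likelihood test and the Benjamini-Hochberg method, and 0 of the 33 passed 0.05. The goats whose NTS libraries chose the genes also gave first-batch VRC and RTN libraries. Comparisons that use those libraries are therefore not fully free of the choice.

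In the NTS after 7 d, all 3 genes had means slightly above those of their own room-air group. ATP5IF1 went from a median of 389 CPM (340.1 to 402) in room air to 426 CPM (315 to 464) after CO2, and the log2 difference was 0.11 (95% interval -0.10 to 0.32, adjusted p = 0.777). MICOS10 went from 167 CPM (149.9 to 191) to 192 CPM (164 to 202), with a log2 difference of 0.17 (-0.01 to 0.35, adjusted p = 0.640). ROMO1 went from 94.7 CPM (89.4 to 138) to 117 CPM (105 to 128), with 0.21 (-0.02 to 0.45, adjusted p = 0.645). The groups overlapped for each gene, although all 6 ROMO1 values after CO2 lay above the room-air mean. The share of all genes called was 0.00653%. The differences at 24 h chose the genes and come from another batch, so the 7 d intervals are not set against them. The change between the times was not tested.

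**Figure D2:**
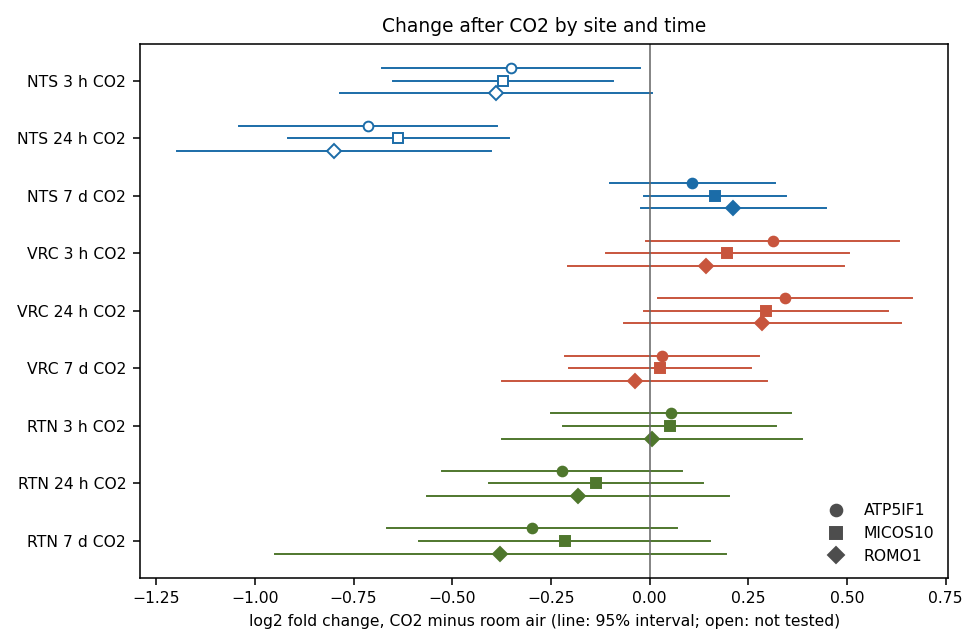
Log2 difference of CO2 minus room air (x axis) for ATP5IF1 (circles), MICOS10 (squares) and ROMO1 (diamonds) in each site and time (y axis), with 95% intervals of the fit. Open symbols mark NTS at 3 h and 24 h, which were not tested. The 3 genes sit close together in every comparison, at -0.71, -0.64 and -0.80 in the NTS at 24 h and at 0.34, 0.30 and 0.29 in the VRC at 24 h.

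In the VRC at 24 h the differences had the opposite sign. After CO2 the level of ATP5IF1 had a median of 487 CPM (465 to 590) against 368 CPM (292 to 559) in room air. MICOS10 had 182 CPM (165 to 206) against 147 CPM (108 to 196), and ROMO1 had 123 CPM (107 to 127) against 95.4 CPM (61.5 to 141). All 6 CO2 libraries lay above the room-air mean for each gene, yet the groups overlapped, because room air spread widely. The log2 differences were 0.34 for ATP5IF1 (95% interval 0.02 to 0.66, adjusted p = 0.357), 0.30 for MICOS10 (-0.01 to 0.60, adjusted p = 0.411) and 0.29 for ROMO1 (-0.07 to 0.64, adjusted p = 0.502). None passed, where 0.817% of all genes tested were called. Without room-air library 2 the ROMO1 value was 0.18.

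OLIG1 and OLIG2, transcription factors of the oligodendrocyte lineage, are among the linked markers. Their summed level ran from 96.1 to 146 CPM in VRC room air and from 21.4 to 45.6 CPM after 24 h of CO2. Of the 9 linked markers 1 was called lower there (OLIG1, -1.91, edgeR adjusted p = 0.0489) and 0 higher. A marker has a linked symbol only because a deposited table of the authors lists it. Such a call is therefore a description and not separate support. In the NTS the sum of OLIG1 and OLIG2 ran from 28.5 to 65.9 CPM in room air and from 24.7 to 106 CPM after 24 h of CO2. The microglial pair AIF1 and CD14 summed to 51.6 to 80.1 CPM in VRC room air against 54.7 to 77.7 CPM after CO2, and to 62.5 to 117 against 35.9 to 86.2 CPM in the NTS, where AIF1 differed by -0.64 (SE 0.21) and CD14 by 0.84 (SE 0.24) on the log2 scale. The endothelial pair THBD and NOS3 summed to 14.9 to 29.6 against 20.0 to 46.9 CPM in the VRC and to 17.6 to 26.9 against 16.1 to 52.2 CPM in the NTS. The red cell pair HBQ1 and HEMGN summed to 6.96 to 17.3 against 10.5 to 15.5 CPM in the VRC and to 11.9 to 25.3 against 8.12 to 19.2 CPM in the NTS, where HBQ1 differed by -0.82 (SE 0.22) and HEMGN by 1.88 (SE 0.55). The choroid plexus marker TTR reached 164 CPM in 1 VRC library after 24 h of CO2, against at most 2.58 CPM in room air. The part of these markers in the levels of the 3 genes was not tested.

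At 3 h in the VRC the medians were 449.9 CPM for ATP5IF1 (342 to 669), 165 CPM for MICOS10 (118 to 234) and 105 CPM for ROMO1 (76.4 to 148), against the same room-air libraries. The log2 differences were 0.31 (95% interval -0.01 to 0.63, adjusted p = 0.396), 0.20 (-0.11 to 0.50, adjusted p = 0.588) and 0.14 (-0.21 to 0.49, adjusted p = 0.749), and 0.0130% of all genes were called. Without CO2 library 5 the first 2 values were 0.19 and 0.080, and without room-air library 2 that of ROMO1 was 0.035. At 7 d the VRC differences were 0.03, 0.03 and -0.04, with intervals of -0.21 to 0.28, -0.20 to 0.26 and -0.37 to 0.30 and adjusted p-values of 0.963, 0.966 and 0.967. Called genes made up 0% at 7 d, with 996 at an unadjusted p under 0.05, 2 called by DESeq2 and 0 by limma voom. Markers also differed in the VRC at 3 h, where 5 of the 9 linked ones were higher and 4 lower. THBD and NOS3 summed to 32.8 to 55.4 CPM after 3 h of CO2, against 14.9 to 29.6 CPM in room air. TTR reached 34.1 CPM, against at most 2.58 CPM. Their part in the 3 h values was not tested.

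In the RTN no comparison of CO2 with room air passed for any of the 3 genes. At 3 h the log2 differences were 0.05 for ATP5IF1 (95% interval -0.25 to 0.36), 0.05 for MICOS10 (-0.22 to 0.32) and 0.01 for ROMO1 (-0.37 to 0.39), with adjusted p-values of 0.960, 0.956 and 0.996 and 0.0129% of all genes called. At 24 h they were -0.22 (-0.53 to 0.08), -0.14 (-0.41 to 0.13) and -0.18 (-0.56 to 0.20), with adjusted p-values of 0.854, 0.906 and 0.916. Without room-air library 6 they were -0.088, -0.031 and 0.017. There 0% of genes were called, 1001 had an unadjusted p under 0.05, DESeq2 called 9 and limma voom 0. Of the 9 linked markers, 6 were higher in the RTN at 3 h and 3 lower, with 1 called higher, again a description. THBD and NOS3 summed to 27.6 to 42.5 CPM after 3 h of CO2, against 11.5 to 22.2 CPM in room air. TTR reached 1888 CPM, against at most 5.82 CPM. Their part in the RTN levels of the 3 genes was not tested.

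At 7 d the RTN differences were -0.30 for ATP5IF1 (-0.66 to 0.07), -0.22 for MICOS10 (-0.58 to 0.15) and -0.38 for ROMO1 (-0.95 to 0.19), each with an adjusted p of 0.999. The value rested on room-air library 6, which held 784 CPM of ATP5IF1, 287 CPM of MICOS10 and 247 CPM of ROMO1, while the room-air medians were 394, 147 and 97.4 CPM. The CO2 medians were 368, 147 and 85.2 CPM. Without that library the log2 differences were -0.08, -0.0017 and -0.012. Called genes made up 0%, with 499 at an unadjusted p under 0.05, 2 called by DESeq2 and 0 by limma voom.

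The 24 h effect was also compared between the VRC and the RTN, the sites whose tables did not choose the genes. The punches at both sites come from the same goats, and the fit did not pair them. ATP5IF1 differed by 0.55 on the log2 scale (95% interval 0.10 to 1.01, unadjusted p = 0.0186, edgeR adjusted p = 0.488), higher in the VRC. For MICOS10 the value was 0.42 (0.00 to 0.84, adjusted p = 0.668) and for ROMO1 0.46 (-0.08 to 0.99, adjusted p = 0.749). None passed, and 1% of all genes did. Without RTN room-air library 6 the ROMO1 value was 0.26. OLIG1 (-2.77, edgeR adjusted p = 0.00523) and OLIG2 (-2.17, adjusted p = 0.00488) were called in this contrast, 2 of the 9 linked markers. These markers were linked because a deposited table of the authors lists them, so the calls are a description. The sum of OLIG1 and OLIG2 in the RTN ran from 26.2 to 69.3 CPM in room air and from 60.7 to 99.7 CPM after 24 h of CO2. Their part in the values of the 3 genes was not tested. The contrast of the NTS with the VRC at 24 h was not tested, because the NTS values chose the genes.

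Between sites, levels were compared in the 18 libraries of 7 d room air. They come from 6 goats, each punched at 3 sites. The fit did not pair the punches of a goat, so its intervals and adjusted p-values ignore that sharing. VRC minus NTS was 0.13 for ATP5IF1, -0.06 for MICOS10 and 0.02 for ROMO1 on the log2 scale, and 0 of 3 passed against 8.72% of all genes. In the fit with the replicate number as a block, ROMO1 was -0.0020 and 2625 genes were called in place of 1359. RTN minus NTS was 0.28, 0.04 and 0.22, with 0 of 3 against 8.27%. RTN minus VRC was 0.15, 0.10 and 0.20, with 0 of 3 against 4.52%. Adjusted p-values ran from 0.323 to 0.973 (edgeR). The 95% interval for ROMO1 in RTN minus NTS ran from -0.32 to 0.76, and RTN room-air library 6 turns the sign of several of these values.

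Over all 15 groups, the highest mean was in the RTN after 3 h of CO2 for ATP5IF1 (531 ± 109 CPM) and MICOS10 (192 ± 37.9 CPM), and in NTS room air at 24 h for ROMO1 (128 ± 42.8 CPM). The lowest was in the NTS after 24 h of CO2 for each gene. From highest to lowest the group means spanned 0.98 log2 units for ATP5IF1, 0.71 for MICOS10 and 0.79 for ROMO1. In that order, 13 of 14 neighbouring groups lay closer than their pooled SD for each gene. The exception was the step down to the NTS after 24 h of CO2, which was 0.36 log2 units for ATP5IF1, 0.27 for MICOS10 and 0.33 for ROMO1. That step is fixed in part by the choice of the genes.

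Within groups, libraries that were high for 1 of the genes tended to be high for the others. After subtracting each group's mean log2 CPM, ATP5IF1 and MICOS10 correlated over the 90 libraries with r = 0.937 (rho = 0.896), MICOS10 and ROMO1 with r = 0.934 (rho = 0.904), and ATP5IF1 and ROMO1 with r = 0.879 (rho = 0.811). Per site, over 30 libraries, r lay between 0.810 and 0.962, and between 0.729 and 0.929 without the 2 libraries farthest from the median. The values are a description, since the genes were chosen together and the libraries share goats and scaling factors. The median r of ATP5IF1 to all genes was -0.01.

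**Figure D3:**
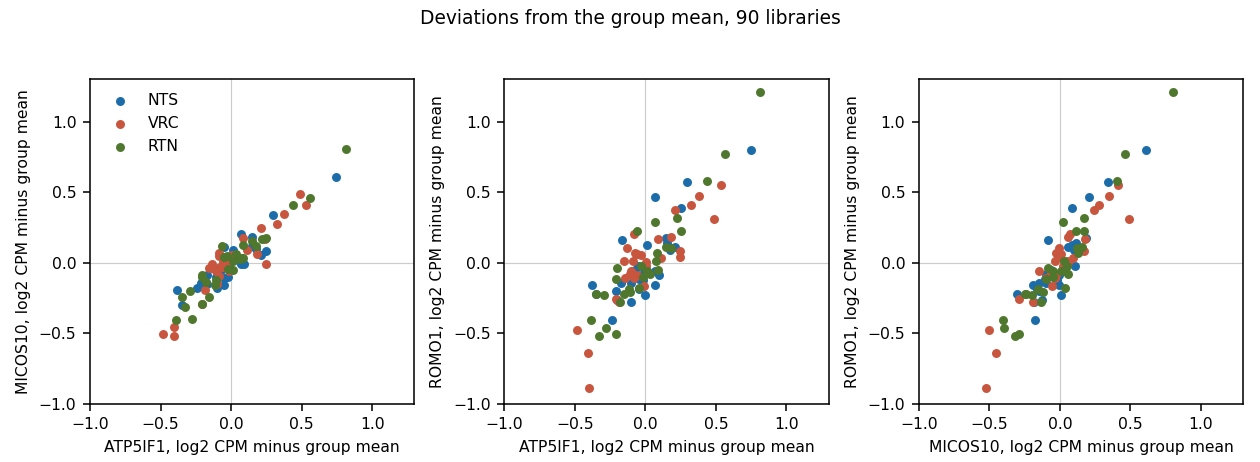
Deviation of each library from its group mean in log2 CPM, for the 3 pairs of genes (x and y axes), coloured by site. Each point is 1 of 90 libraries. The points follow a line in all 3 sites, with r = 0.937, 0.879 and 0.934 from left to right.

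The pooled SD within groups was 0.26 log2 units for ATP5IF1, 0.24 for MICOS10 and 0.34 for ROMO1, while that of the log2 ratio of ATP5IF1 to MICOS10 was 0.09. The ratio of MICOS10 to ROMO1 had a pooled SD of 0.14 and that of ATP5IF1 to ROMO1 0.17. So most of the spread between the libraries of a group was shared by the genes. Among 1988 genes at least as abundant as ROMO1, the median SD was 0.19, and 75.5%, 70.7% and 88.3% of them varied less than ATP5IF1, MICOS10 and ROMO1. With the log2 library total the deviations correlated at -0.13, -0.15 and -0.10 over 90 libraries. With the share of counts in the 50 most abundant genes r was 0.077, 0.14 and 0.11 over all libraries but 0.563, 0.577 and 0.481 in the 30 of the RTN. With the TMM factor it was -0.546, -0.494 and -0.361 in the RTN and 0.238, 0.318 and 0.497 in the NTS. The part of these library measures was not tested.

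The goats did not carry these deviations from site to site in the same degree. Over 30 goats the deviations of ATP5IF1 in the NTS and the RTN correlated with r = 0.423 (rho = 0.306) and in the NTS and the VRC with r = -0.206 (rho = -0.202). Without the 2 farthest libraries the former was 0.248. MICOS10 gave 0.298 and ROMO1 0.319 between NTS and RTN, which became 0.04 and 0.07 without the 2 farthest libraries, so these rest on those libraries. That equal numbers at different sites denote the same goat is not stated in the labels.

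The ratio of ATP5IF1 to MICOS10 was lower in the NTS than at the other sites at every exposure, an observation made after the values were seen and not tested. In the NTS the 5 group means of the log2 ratio ran from 1.14 to 1.28. They ran from 1.39 to 1.51 in the VRC and from 1.36 to 1.47 in the RTN, so that all 5 NTS means lay below the other 10. Within a group the SD of the ratio was between 0.06 and 0.14 (n = 6). The VRC and RTN means overlapped, and so did single libraries, with 1.45 in the NTS at 3 h and 1.18 in the RTN after 7 d of CO2. For ATP5IF1 to ROMO1 the NTS means, 1.79 to 1.94, also lay below the others, 2.00 to 2.17. For MICOS10 to ROMO1 they did not, at 0.54 to 0.74 against 0.59 to 0.72.

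**Figure D4:**
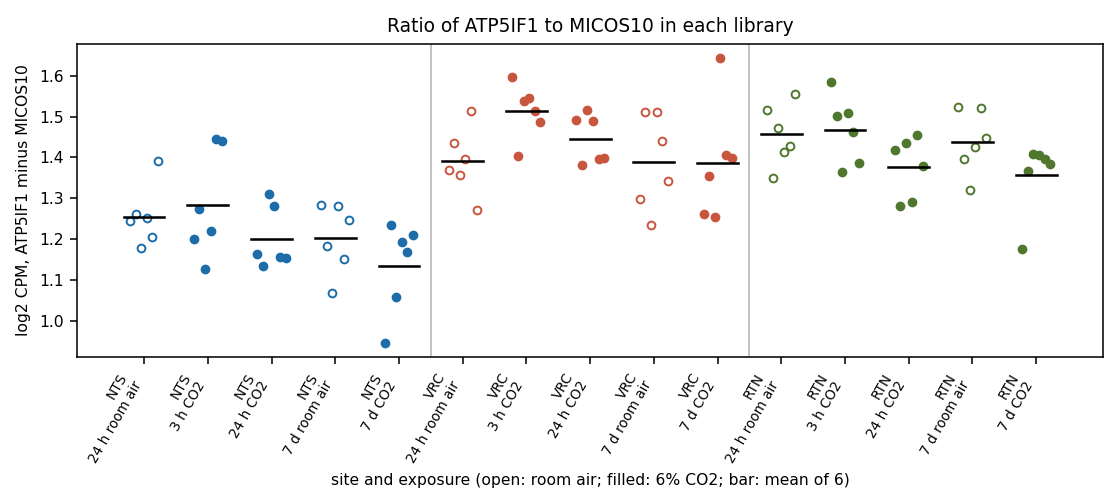
Log2 ratio of ATP5IF1 to MICOS10 in each library (y axis, log2 units) by site and exposure (x axis), with open points for room air, filled points for CO2 and bars for the mean of 6. The 5 NTS means, 1.14 to 1.28, lie below those of the VRC and RTN, 1.36 to 1.51.

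Of the genes with a linked symbol, those most like the 3 genes within groups are no independent choice, since every linked symbol comes from the authors' deposited tables. For ATP5IF1 they were COX6B1 (r = 0.955) and COX5B (0.931), subunits of complex IV, MICOS10 itself, and NDUFA7 (0.925) and NDUFA6 (0.924), subunits of complex I. COX6B1 ranked highest of all 17729 other genes. For MICOS10 they were the complex I subunits NDUFS5 (0.956), NDUFA6 (0.944) and NDUFA7 (0.939), then COX6B1 (0.937) and ATP5IF1. For ROMO1 they were POLR2L (0.942), a small subunit shared by the nuclear RNA polymerases, the ribosomal proteins RPS10 (0.941) and RPL27 (0.932), and MICOS10.

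Over the 15 group means the likest genes were COX6B1 (r = 0.965), the tubulin cofactor TBCA (0.956) and the glutathione transferase MGST3 (0.945) for ATP5IF1. They were the complex I subunit NDUFA2 (0.973), the TFIIH subunit GTF2H5 (0.970) and ROMO1 (0.961) for MICOS10. For ROMO1 they were NDUFA2 (0.979), MICOS10 (0.961) and NDUFA7 (0.957). These means include the NTS groups on which the genes were listed.

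Besides the 3 genes, the fixed lists held 0 linked genes of 24 for ATP synthase and its regulators, 0 of 16 for MICOS and cristae shape and 1 of 27 for protein import into mitochondria. The latter was TOMM7, a small subunit of the outer membrane translocase, with log2 differences of -0.65 in the NTS at 24 h, 0.37 in the VRC at 24 h (edgeR adjusted p = 0.406) and -0.04 in the RTN at 24 h (adjusted p = 0.985). Among respiratory complexes I, III and IV, 12 genes were linked, of which 0 were called in either direction in any of the 11 tested comparisons. Over all genes the share called there ran from 0% to 8.72%, so 0 calls say little about so few genes. The median log2 difference of the 12 was -0.55 in the NTS at 24 h, 0.28 in the VRC at 24 h and -0.11 in the RTN at 24 h, beside medians of all genes of 0.01, 0.00 and 0.00. The 13 linked cytosolic ribosomal protein genes had medians of -0.71, 0.36 and -0.06, with 0 called in the 11 tested comparisons, beside the same shares of all genes. Every linked gene, TOMM7 included, comes from the authors' deposited tables, which list genes by fold change and FDR. The value of a gene in the comparison that listed it is fixed in part by that choice. The medians of linked genes are therefore a description, and the medians of all genes are not chosen in this way. The mitochondrial ribosomal proteins had 0 linked genes.

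COX1, the subunit of complex IV encoded in mitochondrial DNA, was the exception in the respiratory list. In the NTS its level was 323 ± 155 CPM for 24 h room air and 1042 ± 527 CPM for 24 h of CO2, and in the VRC the values were 907 ± 416 and 258 ± 65.2 CPM (SD, n = 6 each). The log2 differences were 1.71 (SE 0.63) and -1.81 (SE 0.45, edgeR adjusted p = 0.0818), opposite in sign to those of the 3 genes, and the authors' deposited tables list COX1 at both sites. Within groups the deviations of COX1 and ROMO1 correlated over 90 libraries with r = -0.551 (rho = -0.531), those of COX1 and MICOS10 with -0.526 (rho = -0.508) and those of COX1 and ATP5IF1 with -0.443 (rho = -0.405). Without the 2 farthest libraries these were -0.523, -0.488 and -0.386. NTS room-air library 6, the highest of its group for the 3 genes, had the lowest COX1 level of that group, at 83.6 CPM. RTN room-air library 6 at 24 h, also the highest of its group for the 3 genes, had instead the highest COX1 level of that group, at 732 CPM. The other 11 linked respiratory genes, which include the copper chaperone COX17, had a median deviation that correlated with ATP5IF1 at 0.949, MICOS10 at 0.969 and ROMO1 at 0.921. For the 13 ribosomal genes it was 0.787, 0.898 and 0.932.

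Without regard to symbols, 60 of 17727 other genes had r of 0.8 or more with each of the 3 genes within groups. Of these, 39 are in the lower part of the authors' deposited NTS 24 h table, which is 65% of the 60 and 25.7% of the 152 other genes listed there. Their median log2 difference was -0.54 in the NTS at 24 h, 0.30 in the VRC at 24 h, -0.24 in the RTN at 7 d and 0.14 in the NTS at 7 d, with all-gene medians between -0.01 and 0.01. The genes were picked for their likeness after the values were seen, and many are in the table that chose the 3 genes.

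The spread between the libraries of a group was compared after the values were seen, with no test, and much of it rested on single libraries. The SD of log2 CPM was smaller after CO2 than in room air in 23 of 27 pairs of gene and comparison. Leaving out the room-air library farthest from its group's median made it 11 of 27, and leaving out the farthest library of each group 15 of 27. In the NTS at 3 h and 24 h the room-air SDs of ATP5IF1, MICOS10 and ROMO1 went from 0.38, 0.32 and 0.40 to 0.13, 0.11 and 0.09 without library 6, against 0.19, 0.21 and 0.32 after 24 h of CO2. In the RTN at 7 d the ROMO1 SD was 0.64 in room air, 0.27 without library 6 and 0.22 after CO2. In the VRC at 7 d it was 0.46 in room air, 0.18 without library 4 and 0.08 after CO2. In the VRC at 24 h it was 0.43 in room air, 0.33 without library 2 and 0.10 after CO2. Over all genes, the share with a smaller SD after CO2 ran from 36.3% to 62.6% by comparison. The 24 h room-air libraries serve 2 comparisons each, so the 27 pairs are not separate.

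**Figure D5:**
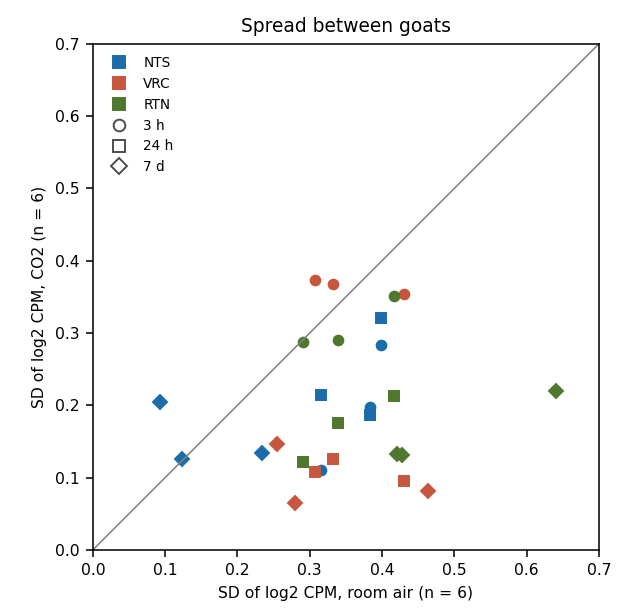
SD of log2 CPM over 6 goats after CO2 (y axis) against room air (x axis) for the 3 genes in 9 comparisons, with colour for site and shape for time. Points under the diagonal have the smaller spread after CO2, 23 of the 27, a count that is 11 when the farthest room-air library of each group is left out.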

How the data were processed

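RNA from 90 punches of goat brainstem was sequenced as 100-bp pairs from SMART-Seq v4 and Nextera XT libraries, per the labels' protocols. Per the submitters' processing notes, STAR 2.7.10b, fastp 0.24.0, edgeR 4.6 and featureCounts 2.0.6 were used; no build or annotation is named. The authors' counts are unnormalized whole numbers per Ensembl gene, and 0 columns were left out. The authors' deposited gene tables give log2 fold changes and log2 mean abundances, a likelihood ratio, which is a score, and p-values with FDR, per the file headers, and hold no entry under 0.50 in absolute log2 change.

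Symbols were linked by fitting edgeR's likelihood ratio model over 90 libraries (minimum count 5) and taking the gene of equal mean log2 CPM (tolerance 1e-06). Of 342 deposited entries 341 matched exactly 1 gene, as did the 3 genes described. A gene without a linked symbol was tested under its identifier and is not named here.

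Tests used R 4.3.3 and edgeR 4.0.16: TMM factors, filterByExpr, glmQLFit (legacy=FALSE, robust=TRUE), the two-sided quasi-likelihood F test and Benjamini-Hochberg adjustment over all genes, at 0.05. Each site was fitted within its batch. Levels used TMM over all libraries; log2 CPM had a prior count of 2. The 95% intervals are for the mean log2 difference and rest on the spread between these libraries. Their SE was the absolute log2 change over the square root of the F statistic. The code was tested on simulated data. Alternatives were DESeq2 1.42.0, limma 3.58.1 voom, RLE factors, no filter, other sets of libraries and the replicate number as a block. The rule for named genes took the 3 genes, for each the 5 likest linked genes within groups and the 3 likest over group means, and linked members of the fixed lists. For ROMO1, 1 of the likest genes is not reported here. Residuals of equal replicate numbers correlated above 0.1 in every pair between NTS room air and 3 h (lowest 0.244) and 24 h of CO2 (lowest 0.12). The same held between NTS and VRC in 7 d room air (lowest 0.366). It also held between VRC and RTN in room air and CO2 at 24 h (lowest 0.222 and 0.433). The reported fits used no replicate block, and the number entered only in the alternative fit with a block. The labels do not say what a number marks, and goats of different exposures are different animals. The 3 genes and the lists were chosen with earlier results of these data known. The fit of the 24 h difference between sites with 24 libraries and the SDs without the farthest libraries were added after the data were seen.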

Additional observations from a re-analysis of the deposited data

Results flagged for a closer look

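In 9 of 45 combinations of gene and group, 1 library stood far from the other 5. This was measured as its gap to the nearest library over the whole range of the group (Dixon's test at the 95% level). The test was run on CPM and not on log2 CPM, and the number of flags depends in part on that scale. Chance gives about 5% of separate groups, but the 3 genes vary together, so the 9 are not separate and come from 5 libraries. Library 6 of NTS room air at 24 h was the highest for ATP5IF1 (0.771), MICOS10 (0.758) and ROMO1 (0.851), and library 6 of RTN room air at 7 d for ATP5IF1 (0.726), MICOS10 (0.695) and ROMO1 (0.784). For ROMO1 this also held for library 6 of RTN room air at 24 h (0.665) and library 3 of NTS room air at 7 d (0.829), and for ATP5IF1 for library 3 of the VRC after 24 h of CO2 (0.708). Each was the highest of its group, and 4 of the 5 libraries are room air.

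In some pairs of comparisons every CO2 library lay below the room-air mean in one and above it in the other. None of these differences was tested, and the share of all genes that meet this rule was not counted. The NTS values at 24 h chose the genes, and those at 3 h share the room-air libraries. The mean of those libraries is raised by library 6, so the differences that use them are a description. The log2 change in the NTS at 24 h less that in the VRC at 24 h was -1.06 for ATP5IF1, -0.932 for MICOS10 and -1.09 for ROMO1. For ROMO1 in the NTS, the change at 3 h less that at 7 d was -0.601, and the change at 24 h less that at 7 d was -1.01, both across batches. The ROMO1 change in the NTS at 7 d less that in the RTN at 7 d was 0.59, where the RTN value rests on room-air library 6.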

How the results depend on the processing

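None of the 33 tested values passed 0.05 under any of 222 values from other settings or 432 from leaving out 1 library, with a lowest adjusted p of 0.143, and 214 and 404 of them kept their direction. Other scaling factors moved 0 of 90 group means by more than the SD. With limma voom, VRC 7 d ROMO1 turned to 0.0022, RTN minus NTS to -0.12 for MICOS10 and -0.042 for ROMO1, and RTN minus VRC to -0.0069 for ATP5IF1, -0.057 for MICOS10 and -0.056 for ROMO1, and the cause was not tested. Leaving out 1 library turned 28 values. VRC 7 d ran from -0.039 to 0.098 for ATP5IF1, from -0.061 to 0.079 for MICOS10 and from -0.17 to 0.043 for ROMO1 (lowest without room-air number 4, highest without number 5). RTN 3 h ran from -0.047 to 0.19, -0.040 to 0.16 and -0.13 to 0.20 (without CO2 number 2, room-air number 6), and RTN 24 h ROMO1 from -0.26 to 0.017 (room-air numbers 3 and 6). VRC minus NTS ran from -0.12 to 0.025 for MICOS10 and -0.061 to 0.15 for ROMO1 (VRC numbers 5 and 4). RTN minus NTS ran from -0.16 to 0.12 for MICOS10 and -0.13 to 0.34 for ROMO1, and RTN minus VRC from -0.055 to 0.23, -0.10 to 0.18 and -0.16 to 0.31 (RTN numbers 6 and 4).

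The labels do not say what a replicate number marks. In the comparisons other than those named under processing, equal numbers did not correlate above 0.1 in every pair. Across sites of the same exposure there were 15 pairs of groups. Residuals of equal numbers correlated with a median of 0.407 over the medians of these pairs and a lowest value of -0.237. In 81 of 90 matches of a library with a group of another site, the closest library there had its own number. These 90 matches use some libraries more than once and are not the 90 libraries. The replicate block changed no call of the 3 genes, and turned VRC 7 d ROMO1 to 0.0068 and VRC minus NTS ROMO1 to -0.0020. With it 13 genes were called in the NTS at 24 h in place of 0, 3 at 3 h in place of 0, 95 in the VRC at 3 h in place of 2, and 2625, 2371 and 1979 in place of 1359, 1289 and 704 between sites.

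Counts of genes called over the other settings ran from 0 to 273 in the NTS at 24 h (0 to 114 without 1 library), from 0 to 75 in the NTS at 7 d (1 in the reported fit), from 2 to 121 in the VRC at 3 h (2 to 180 without 1 library), from 113 to 274 in the VRC at 24 h (126 reported, 18 without CO2 number 1), from 0 to 17 in the RTN at 3 h (2 reported) and from 100 to 231 for the VRC less RTN effect (160 reported). The lowest count of the 3 genes in any library was 586.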
